A study of Mus musculus with 12 samples.

Results

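The 10 genes described here are Trp53, which encodes the transcription factor p53, and a panel of genes of DNA damage and senescence: Cdkn1a, Cdkn2a, Mdm2, Ccng1, Bax, Bbc3, Phlda3, Gdf15 and Trp53inp1. They were taken by name from 21878 genes of a table of FPKM (fragments scaled to transcript length and to library size, a level per unit of length), by a rule that uses their names and no measured value, although the panel was drawn up with earlier results of these data known. Of the 10 genes, 9 reached an FPKM of at least 1 in at least 3 of the 12 samples and were tested with 10675 genes in all. Cdkn2a was listed at 0 in all 12 samples.

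The study asked what autophagy does in alveolar type 2 (AT2) cells, the surfactant-making progenitors of the lung alveolus, when the lung is injured with bleomycin (BLM). AT2 cells of C57BL/6 mice were sorted and their RNA was sequenced in 4 groups of 3 samples. AT2-PBS and AT2-BLM cells came from mice whose Atg5 gene is flanked by loxP sites but not recombined (Atg5 f/f, labelled wild type), given PBS or BLM. The same 2 treatments of Nkx2.1Cre;Atg5 f/f mice gave Atg5-/- AT2-PBS and Atg5-/- AT2-BLM cells. In these mice Cre is expressed from the start of lung development in the lung epithelium and also in other organs that express Nkx2.1, so the loss is not limited to AT2 cells or to the time of injury. The mice were males 8 to 12 weeks old, BLM was instilled into the trachea at 2 U/kg, and the cells were taken on day 14 in the 3 groups for which the study names a day, which do not include Atg5-/- AT2-PBS. Nothing in the labels says whether each sample is 1 mouse or a pool, so p-values measure the spread between these samples.

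Bleomycin cuts both strands of DNA. Breaks activate the kinases Atm and Atr, which free p53 from its inhibitor Mdm2, and stabilized p53 then switches on genes that stop the cell cycle (Cdkn1a), start apoptosis (Bax, Bbc3), repair DNA or shut p53 off again (Mdm2, Ccng1). Because p53 is controlled mostly through its protein, the mRNA of its targets is a common readout of its activity. A cell that stays arrested can become senescent, a state marked by Cdkn1a, Cdkn2a and secreted inflammatory proteins, and AT2 cells in injured and fibrotic lungs are known to enter such states.

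FPKM sums differed between libraries, from 390141 to 549169, and replicates of a group correlated at 0.969 to 0.991 (Pearson r of log2(FPKM + 1) across genes, which are not independent replicates). Atg5 itself was at 6.01 to 12.5 FPKM in the 6 wild-type samples and at 6.72 to 10.1 in the 6 Atg5-/- samples. These ranges overlap, and a value over the whole gene does not resolve the exon that Cre removes, so the level does not check the genotype labels. Of 6 AT2 markers, Sftpc was listed at 0 in 11 libraries and at 112570 in AT2-BLM replicate 2, so a 0 can be a failed estimate and Cdkn2a cannot be called absent. The other 5 AT2 markers summed to 15436 to 29333 FPKM in every library. Sftpa1 and Sftpb made up most of this sum, which does not show whether single markers were even between groups. Sftpb alone ran from 1777 FPKM in AT2-PBS replicate 1 to 16778.5 in AT2-BLM replicate 1.

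The Atg5-/- AT2-PBS libraries stood apart in markers of other cell types, although the sort kept EpCAM-positive cells without CD31, CD34, CD45, CD24 and Sca-1. The sum of 9 leukocyte markers was 831 to 1140 FPKM there, 17.1 to 66.7 in AT2-PBS, 68.5 to 169.8 in AT2-BLM and 68.6 to 267 in Atg5-/- AT2-BLM. Ptprc, which encodes CD45, was at 7.54 to 8.46 FPKM in Atg5-/- AT2-PBS and at most 2.64 in the 9 other libraries. The sum of 6 airway markers, nearly all of it Scgb1a1 of club cells, was 23132 to 84647 FPKM in Atg5-/- AT2-PBS and at most 11757 elsewhere, and sums of 6 fibroblast and 6 hepatocyte markers were highest there too, at 89.7 to 101 and 1696 to 2912. The sum of 6 endothelial markers was at most 32.4 FPKM in any library. Among the 3 AT2-PBS samples, replicate 1 had 461 FPKM of hepatocyte markers against 5.38 and 3.34 in the others. In bulk RNA, more cells of a type and more RNA per cell cannot be told apart.

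The panel was first searched for p53 response elements, since genes that p53 drives directly often carry one. The element is a pair of abutting half-sites of 10 bases, each with a core of C, then A or T at both middle positions, then G. It was searched on both strands within 3000 bases on either side of the first annotated transcription start of each gene in mm9 (NCBIM37, GENCODE vM1), with both cores intact and at most 1 other base off the element. Of the 9 tested genes, 3 held such a site, Cdkn1a, Ccng1 and Gdf15, against 0.845% of the 9823 tested genes with a window, and allowing 2 bases off added no gene of the panel but raised the share of all genes to 4.072%. A match is a sequence only, and binding was not measured. Half-sites with bases between them were not searched. The panel was listed for its p53 targets, so a share above that of all genes was favoured by the choice. The 3 sites of the panel are shown on the strand of their gene, and those of Gtse1 and Zmat3, p53 targets that come up again with the wider list of targets, for comparison. The 20 bases of the element are in capitals, with 5 bases on either side.
Cdkn1a: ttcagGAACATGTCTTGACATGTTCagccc
Ccng1: ccggaACGCAAGCCCGGGCTAGTCTgcgcc
Gdf15: aggggTGACTTGCCTGAACTTGCCTtttct
Gtse1: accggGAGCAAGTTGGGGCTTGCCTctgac
Zmat3: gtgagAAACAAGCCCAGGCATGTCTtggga

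The Cdkn1a stretch is chr17:29227868-29227897 (mm9, plus strand), centred 42 bases before the nearest of 3 annotated starts, which is also the first, and at -2834 from the next. The Ccng1 stretch is chr11:40568433-40568462 (minus strand), in an intron 366 bases after the first start. The Gdf15 stretch is chr8:73155860-73155889 (minus strand), in the untranslated part of an exon, 120 bases after the nearest start and 480 after the first. The Gtse1 stretch is chr15:85690370-85690399 (plus strand), untranslated, 8 bases after the nearest start, and that of Zmat3 is chr3:32263248-32263277 (minus strand), in an intron 1120 bases after the nearest one, and of the 5 sites it alone has no base off the element. Among the promoters of RefSeq (GRCm38.p6), short windows around a start, 9 of the 10 genes had an entry, and of these 1 promoter of Cdkn1a held a site, against 0.055% of 32851 promoters.

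In wild-type AT2 cells, BLM raised 8 of the 9 tested genes of the panel, with Bbc3 as the exception. A gene was called when its unadjusted p was under 0.05 and its fold change at least 1.4, the study's own criteria, in a limma fit of log2(FPKM + 1) over all 12 samples. By this rule 20.6% of all tested genes were called higher with BLM. All 8 also had a Benjamini-Hochberg adjusted p under 0.05, as 13.1% of all tested genes did in this direction. In all 8 genes the 3 AT2-BLM samples lay above the 3 AT2-PBS samples, as in 28.9% of tested genes. The median log2 change of the 9 genes was 1.75, beside 0.17 over all tested genes.

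**Figure D1:**
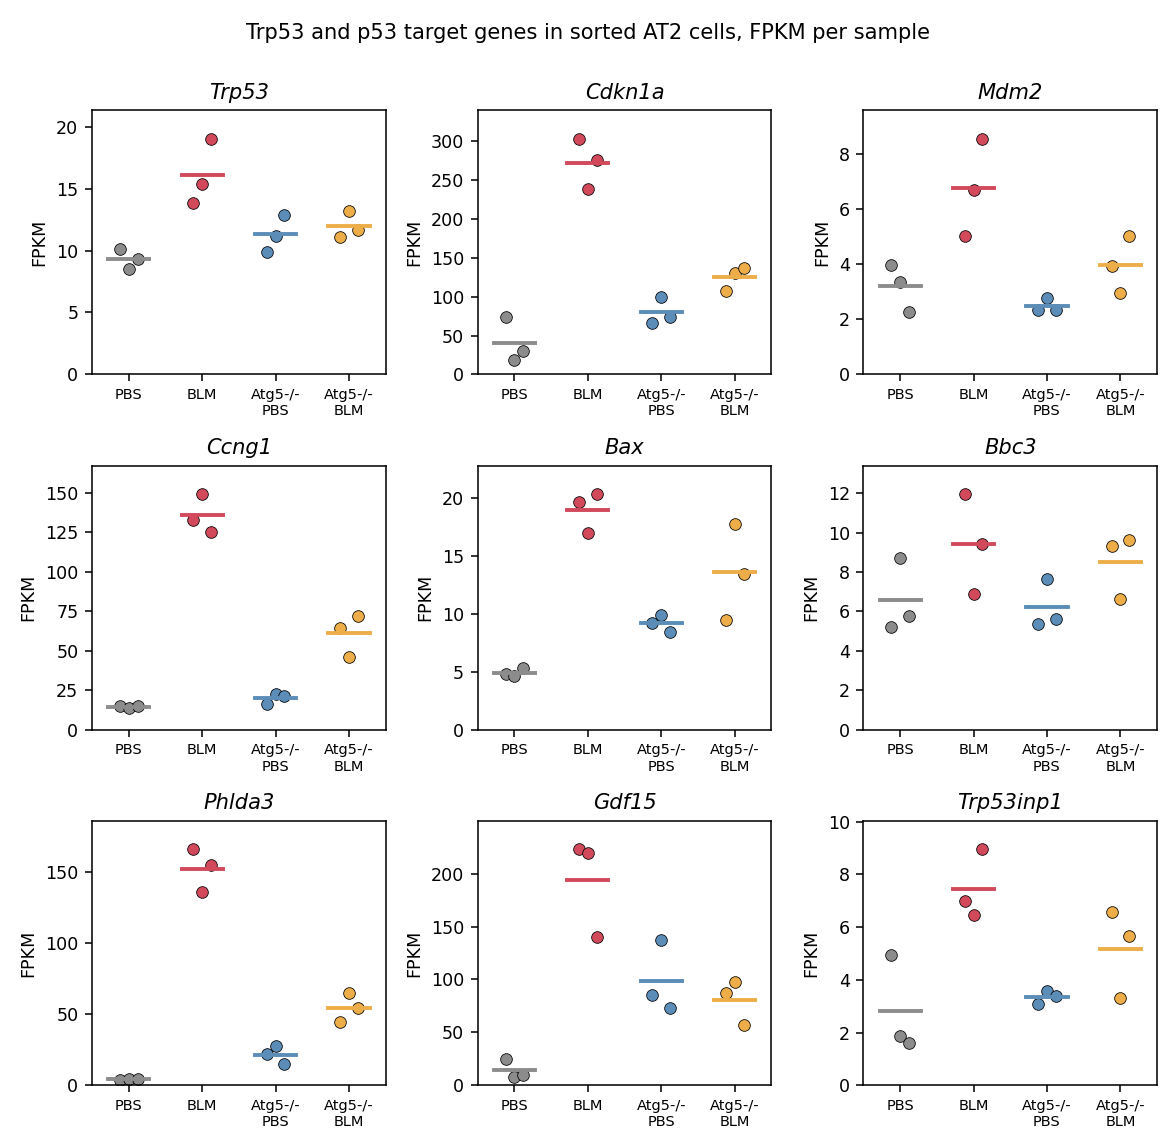
FPKM of the 9 tested genes in each of the 12 sorted AT2 samples, 1 panel per gene with its own linear axis from 0. Points are samples and bars are group means (n = 3). In all 9 panels the AT2-BLM mean is the highest of the 4, and the Atg5-/- AT2-BLM mean lies below it.

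Trp53 (chr11:69393861-69405375 in mm9, plus strand) was at 10.1, 8.49 and 9.28 FPKM in the 3 AT2-PBS samples and at 13.8, 15.4 and 19.04 in the 3 AT2-BLM samples. The groups did not overlap. Its log2 change was 0.72 ± 0.16 (SE, limma adjusted p = 0.0118), a 1.73-fold higher mean. With values scaled to Cdh1, the cadherin of epithelial junctions, it was 0.50 and was not called. Mdm2 (chr10:117125944-117147814, minus strand), the ubiquitin ligase that marks p53 for degradation and is itself a p53 target, was at 3.98, 3.35 and 2.26 FPKM with PBS and at 5.02, 6.69 and 8.56 with BLM. All BLM samples were above all PBS samples, with a log2 change of 0.88 ± 0.23 (adjusted p = 0.0236). Trp53 and Mdm2 had the smallest changes of the 8 genes called.

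Cdkn1a (chr17:29227924-29237667, plus strand) encodes p21, the inhibitor of cyclin-dependent kinases through which p53 arrests the cell cycle. It was at 73.7, 18.7 and 30.6 FPKM in AT2-PBS and at 303, 238 and 276 in AT2-BLM. Replicate 1 of AT2-PBS, the library with hepatocyte markers, was higher than the other PBS samples, but every BLM sample was above it. The mean rose 6.64-fold, a log2 change of 2.92 ± 0.36 (adjusted p = 0.000945), and was 3.45 without that replicate. Of the tested genes, 2.34% had a higher mean FPKM than Cdkn1a in AT2-BLM, against 12.7% in AT2-PBS.

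Ccng1 (chr11:40562054-40568813, minus strand), cyclin G1, a p53 target that acts back on Mdm2, was at 14.8, 13.7 and 15.1 FPKM with PBS and at 132, 149 and 125 with BLM. Its replicates were tight in both groups and the mean rose 9.34-fold (log2 change 3.14 ± 0.18, adjusted p = 3.24e-06). Phlda3 (chr1:137662696-137665713, plus strand), a p53-induced repressor of the survival kinase Akt, was at 3.95, 4.43 and 4.62 FPKM with PBS and at 166, 135 and 155 with BLM. With a mean 35.0-fold higher (log2 change 4.84 ± 0.21, adjusted p = 2.35e-07), Phlda3 ranked 4 of 10675 genes by the size of the increase and 1 by p, and Ccng1 ranked 29 and 2.

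Gdf15 (chr8:73153292-73156355, minus strand), a secreted stress cytokine of the TGF-beta superfamily, was at 24.7, 7.80 and 9.68 FPKM in AT2-PBS and at 223, 219 and 140.1 in AT2-BLM. Its mean rose 13.8-fold (log2 change 3.83 ± 0.38, adjusted p = 0.00027), rank 8 of all tested genes by size. Trp53inp1 (chr4:11083578-11101526, plus strand), a stress protein that promotes p53 activity and binds autophagy proteins, was at 4.94, 1.85 and 1.60 FPKM with PBS and at 6.97, 6.46 and 8.95 with BLM. It rose 2.67-fold (log2 change 1.25 ± 0.30, adjusted p = 0.0171), and as for Cdkn1a and Gdf15 the highest PBS value was replicate 1.

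The 2 apoptosis genes differed. Bax (chr7:52717065-52722268, minus strand), which opens the outer mitochondrial membrane, was at 4.79, 4.64 and 5.34 FPKM with PBS and at 19.7, 17.0 and 20.4 with BLM, a log2 change of 1.75 ± 0.19 (adjusted p = 0.00053). Bbc3 (chr7:16894965-16903554, plus strand), which encodes the BH3-only protein Puma, was at 5.22, 8.71 and 5.75 FPKM with PBS and at 12.0, 6.91 and 9.40 with BLM. These ranges overlap, and its log2 change of 0.46 (95% interval -0.06 to 0.98, adjusted p = 0.192) was not called. Without AT2-PBS replicate 2 it was 0.66 and was called, as it was without AT2-BLM replicate 2, at 0.65.

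Markers of the transitional alveolar state, an intermediate between AT2 and AT1 cells in which p53 targets are known to be high, moved with the panel. Of 8 such markers, 7 were called higher with BLM in wild-type cells, and their sum was 626 to 1188 FPKM in AT2-PBS and 1445 to 3464 in AT2-BLM. The highest was Krt8, at 290 to 445 FPKM with PBS and 565 to 1266 with BLM. Of 6 AT1 markers 3 were called higher with BLM too, Pdpn (log2 change 3.26), Hopx (2.10) and Cav1 (1.34), each with a limma adjusted p under 0.05. Of 5 tested AT2 markers, 1 was called higher and 1 lower. Leukocyte markers (7 of 8 tested) and hepatocyte markers (5 of 6) were called higher with BLM as well, and 4 of 4 tested airway markers lower. Their part in the panel's values was not tested.

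In cells without Atg5, BLM raised 2 of the 9 genes, Ccng1 and Phlda3. By the same rule 7.66% of all tested genes were called higher in this comparison. The adjusted p of both was under 0.05 too. Over the 9 genes the log2 change had a median of 0.48, beside 0.06 over all tested genes, and 4 genes, Cdkn1a, Mdm2, Ccng1 and Phlda3, had BLM samples all above the PBS samples, as 13.1% of all tested genes did. In the same comparison 8 of 8 tested leukocyte markers, 5 of 5 fibroblast markers, 4 of 4 airway markers and 3 of 6 hepatocyte markers were called lower with BLM, and 4 of 6 AT1 markers and 2 of 8 transitional alveolar markers higher. Their part in the panel's values was not tested. Ptprc and the fibroblast marker Lum reached an FPKM of 1 in 3 samples only with the Atg5-/- AT2-PBS samples. Their lower calls were favoured by that filter.

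Ccng1 stood at 16.2, 22.9 and 21.3 FPKM in the 3 Atg5-/- AT2-PBS samples, and the 3 given BLM had 64.2, 46.3 and 72.2. The groups did not overlap, with a log2 change of 1.54 ± 0.18 (adjusted p = 0.000398). Phlda3 was at 21.8, 27.6 and 14.8 FPKM with PBS and at 44.6, 64.9 and 54.2 with BLM, again without overlap (log2 change 1.33 ± 0.21, adjusted p = 0.00189). The mean was 3.03-fold higher for Ccng1 and 2.55-fold higher for Phlda3.

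For Cdkn1a the Atg5-/- AT2-PBS samples had 66.4, 99.5 and 73.5 FPKM, and the samples given BLM 107, 131 and 137. Every BLM sample was above every PBS sample, but the log2 change of 0.65 (95% interval -0.14 to 1.45, adjusted p = 0.34) was not called, although it was in a fit of these 2 groups alone. Mdm2 was at 2.32, 2.78 and 2.34 FPKM with PBS and at 3.95, 2.94 and 5.02 with BLM, a log2 change of 0.50 (-0.01 to 1.00, adjusted p = 0.236) that was not called either. Without Atg5-/- AT2-BLM replicate 2 Mdm2 and Trp53inp1 were called, at 0.65 and 0.71, so that 4 genes of the panel were.

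Trp53 mRNA was at 9.89, 11.2 and 12.9 FPKM in Atg5-/- samples given PBS and at 11.1, 13.2 and 11.6 in those given BLM. The ranges overlap and the log2 change was 0.08 (95% interval -0.27 to 0.42, adjusted p = 0.857), with a sign that turned, at -0.01, without Atg5-/- AT2-PBS replicate 1. Bax was at 9.25, 9.89 and 8.42 FPKM with PBS and at 9.49, 17.8 and 13.5 with BLM. Its log2 change of 0.48 (0.06 to 0.90, adjusted p = 0.171) was just under the fold needed for a call, and it was called without Atg5-/- AT2-PBS replicate 2 (0.53) and without Atg5-/- AT2-BLM replicate 1 (0.70). Bbc3, at 5.39 to 7.64 FPKM with PBS and 6.62 to 9.62 with BLM, and Trp53inp1, at 3.06 to 3.58 and 3.32 to 6.56, overlapped between the groups and were not called (log2 changes 0.40 and 0.47).

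Gdf15 was the gene of the panel with a negative estimate. The Atg5-/- samples given PBS had 85.1, 137 and 72.9 FPKM and those given BLM 87.6, 97.6 and 56.5, which overlap (log2 change -0.27, 95% interval -1.10 to 0.56, adjusted p = 0.764). In both Atg5-/- groups every sample was above all 3 AT2-PBS samples and below all 3 AT2-BLM samples.

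**Figure D2:**
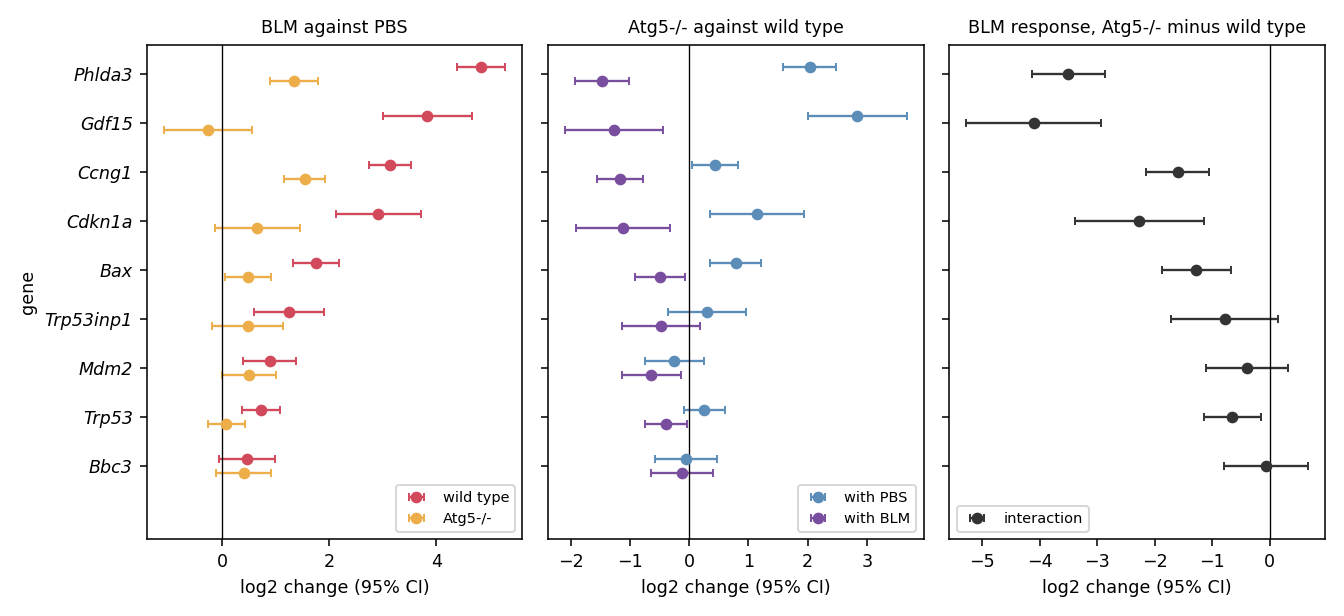
Log2 changes of the 9 tested genes with their 95% intervals from the limma fit (n = 3 per group, 4 groups), for BLM against PBS in each genotype, for Atg5-/- against wild type with PBS and with BLM, and for the difference of the 2 BLM responses. Phlda3 goes from 4.84 in wild-type cells to 1.33 in Atg5-/- cells, and Gdf15 from 3.83 to -0.27.

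Before injury, loss of Atg5 was accompanied by higher levels of 4 of the 9 genes, Cdkn1a, Bax, Phlda3 and Gdf15, in a comparison in which 14.1% of all tested genes were called higher. For Bax, Phlda3 and Gdf15 the adjusted p was under 0.05, as for 9.9% of tested genes in this direction. Gdf15 differed the most, with a mean of 98.4 ± 34.3 FPKM (SD, n = 3) against 14.04 ± 9.24 in AT2-PBS (log2 change 2.84 ± 0.38, adjusted p = 0.000343). Phlda3 averaged 21.4 ± 6.39 FPKM against 4.34 ± 0.346 (log2 change 2.03 ± 0.21, adjusted p = 6.01e-05), and Bax 9.19 ± 0.736 against 4.92 ± 0.367 (0.78 ± 0.19, adjusted p = 0.0191). In these 3 genes, and in Ccng1, which was not called (log2 change 0.43), all Atg5-/- samples were above all wild-type samples, as in 18.1% of tested genes.

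Cdkn1a averaged 79.8 ± 17.4 FPKM in Atg5-/- AT2-PBS and 41.01 ± 28.9 in AT2-PBS. The groups overlapped through AT2-PBS replicate 1, and the log2 change of 1.15 ± 0.36 had an adjusted p of 0.0691. Without that replicate the log2 change was 1.67, and Trp53inp1 was called in addition, at 0.67. Trp53, Mdm2 and Bbc3 were not called with PBS (log2 changes 0.26, -0.25 and -0.05), and the signs of Mdm2 and Bbc3 turned with scaling to Cdh1, to 0.05 and 0.30. With that scaling 7 of the 9 genes were called higher, Trp53 (0.62), Ccng1 (0.81) and Trp53inp1 (0.62) in addition, and it moved the median of all tested genes from 0.02 to 0.34.

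These differences go together with the markers of other cells in the Atg5-/- AT2-PBS libraries. With PBS, 8 of 8 tested leukocyte markers, 6 of 6 hepatocyte markers, 5 of 5 fibroblast markers and 3 of 4 airway markers were called higher in Atg5-/- cells, whereas of 8 transitional alveolar markers 1 was called higher and 2 lower. The part of these cells in the levels of Gdf15, Phlda3, Bax and Cdkn1a was not tested. Of 5 tested AT2 markers, 1 was called higher and 2 lower in this comparison. Ptprc and Lum passed the filter on low values only through the Atg5-/- AT2-PBS libraries, so their higher calls were favoured by it. The log2 changes between the 2 BLM groups are not computed from these 3 libraries, but their p-values share the spread estimated over all 12 samples. In a fit of the 2 BLM groups alone, 5 genes of the panel were called lower, without Bax (unadjusted p = 0.0647).

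**Figure D3:**
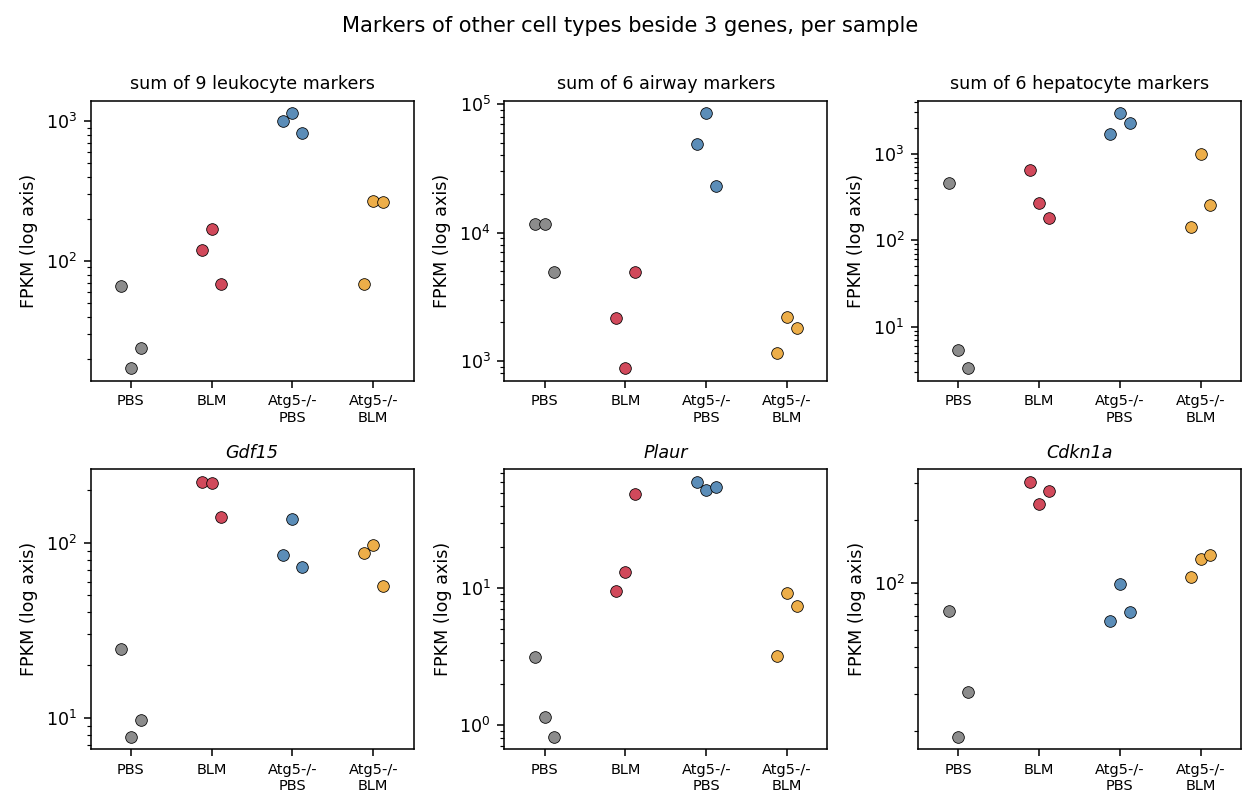
FPKM on a log axis in each sample for the sums of 9 leukocyte, 6 airway and 6 hepatocyte markers (top) and for Gdf15, Plaur and Cdkn1a (bottom). The 3 sums and Plaur are highest in Atg5-/- AT2-PBS, whereas Cdkn1a is highest in AT2-BLM, at 238 to 303 FPKM.

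During BLM injury, 6 of the 9 genes were called lower in Atg5-/- than in wild-type AT2 cells: Cdkn1a, Mdm2, Ccng1, Bax, Phlda3 and Gdf15. Of all tested genes, 3.12% were called lower and 2.04% higher. None of the 6 had an adjusted p under 0.05 in the limma fit (7 had an unadjusted p under it), and 1 gene of the 10675 did. Phlda3 and Ccng1 ranked 2 and 4 of all tested genes by p. The median log2 change of the 9 genes was -0.64, beside -0.05 over all tested genes, and all 9 estimates were negative.

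The Atg5-/- AT2-BLM mean of Phlda3 was 54.5 ± 10.2 FPKM against 151.9 ± 15.3 in AT2-BLM (log2 change -1.47 ± 0.21, adjusted p = 0.0652), or 0.359 of the wild-type level. Ccng1 was at 60.9 ± 13.2 against 135.6 ± 12.2 FPKM (-1.16 ± 0.18, adjusted p = 0.0652), Cdkn1a at 124.8 ± 15.8 against 272 ± 32.8 (-1.12 ± 0.36, adjusted p = 0.607) and Gdf15 at 80.6 ± 21.4 against 194 ± 46.9 (-1.26 ± 0.38, adjusted p = 0.607). In these 4 genes all 3 Atg5-/- samples were below all 3 wild-type samples. The same held for Trp53, whose log2 change of -0.39 ± 0.16 was under the fold of the rule, so 5 genes did not overlap, as 8.49% of all tested genes did in this direction.

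Mdm2, at 2.94 to 5.02 FPKM against 5.02 to 8.56, overlapped by a hair (5.023 against 5.016), with a log2 change of -0.64 ± 0.23 (adjusted p = 0.618). Bax, at 9.49 to 17.8 FPKM against 17.0 to 20.4, also overlapped (-0.49 ± 0.19, adjusted p = 0.62). Both calls turned on single libraries. Without AT2-BLM replicate 3, 4 genes were called and Mdm2 (-0.47) and Bax (-0.44) were not. Bax also lost its call when replicate 1 of AT2-BLM (-0.47) or of Atg5-/- AT2-BLM (-0.27) was left out, after quantile normalization (-0.39), with median-ratio scaling (-0.44) or with scaling to Cdh1 (-0.32), nor Mdm2 without Atg5-/- AT2-BLM replicate 2 (-0.48) or with scaling to Cdh1 (-0.48), which left 4 calls, and Trp53 was called without AT2-BLM replicate 1 (-0.49). Trp53inp1 (-0.48) and Bbc3 (-0.12) were not called.

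The transitional alveolar markers again moved with the panel, 7 of 8 being called lower in Atg5-/- AT2-BLM than in AT2-BLM, with sums of 648 to 1308 FPKM against 1445 to 3464. None of the 8 tested leukocyte markers and none of the 6 hepatocyte markers were called by limma in this comparison, and 0 had an unadjusted p under 0.05. Of 4 airway markers 1 was called higher, of 5 fibroblast markers 1 lower and of 6 AT1 markers 2 lower. The part of the transitional state in the panel's values was not tested.

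Across all 4 groups, the mean of AT2-BLM was the highest for all 9 genes, as for 39.1% of tested genes. In 5 of them, Trp53, Cdkn1a, Ccng1, Phlda3 and Gdf15, each of the 3 AT2-BLM samples was above all 9 other samples, as in 4.81% of tested genes. In 6 genes, Trp53, Cdkn1a, Ccng1, Bax, Phlda3 and Trp53inp1, the means were ordered, from low to high, AT2-PBS, Atg5-/- AT2-PBS, then Atg5-/- AT2-BLM, then AT2-BLM, as in 15.1% of tested genes, although neighbours in this order overlapped in several, such as both Atg5-/- groups for Trp53, Bax and Trp53inp1. For Gdf15 the Atg5-/- groups overlapped each other and stood between the wild-type groups.

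The difference of the 2 BLM responses, Atg5-/- minus wild type, was tested as the interaction in the same fit. It was called negative for 6 of the 9 genes, Trp53, Cdkn1a, Ccng1, Bax, Phlda3 and Gdf15, as for 15.2% of all tested genes. For 5 of them, all but Trp53, the adjusted p was under 0.05 as well, as for 7.11% of tested genes. The response was lower by 4.10 ± 0.54 log2 units for Gdf15, with a change of 3.83 in wild-type and -0.27 in Atg5-/- cells (interaction -4.10, adjusted p = 0.00177). For Phlda3 the interaction was -3.50 ± 0.29 (adjusted p = 0.000176), for Cdkn1a -2.27 ± 0.52 (0.0193), for Ccng1 -1.59 ± 0.25 (0.00355), for Bax -1.27 ± 0.28 (0.0159) and for Trp53 -0.65 ± 0.23 (0.114). That of Trp53 was -0.42 and not called after quantile normalization. By construction, the interaction is the genotype difference with BLM minus that with PBS. In size, the PBS part was the larger for Gdf15 (2.84 against -1.26), Phlda3 (2.03 against -1.47), Cdkn1a (1.15 against -1.12) and Bax (0.78 against -0.49), and the BLM part for Ccng1 (-1.16 against 0.43). The PBS part is the one in which the other-cell markers were high, and the interaction was also called negative for 8 of 8 tested leukocyte markers, with a median of -3.92. Among these markers, Ptprc was favoured by the filter on low values. The part of other cells in the panel's interaction was not tested. Trp53inp1 (-0.78), Mdm2 (-0.39) and Bbc3 (-0.07) were not called, and Trp53inp1 was without AT2-PBS replicate 1, at -1.15.

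A wider list of 47 p53 targets outside the panel, of which 41 were tested, was then described in the same way. It was compiled with earlier results of these data known. With BLM in wild-type cells 18 were called higher and 1 lower, with a median log2 change of 0.42 beside 0.17 over all genes, and 15 of the 18 had an adjusted p under 0.05. The background was 20.6% called higher and 7.77% called lower. The largest increases were of Sfn (2.68 ± 0.60), which encodes the 14-3-3 sigma protein of G2 arrest and is also one of the transitional markers, Aen (2.61 ± 0.18), an apoptosis-enhancing nuclease, and Fas (1.95 ± 0.25), a death receptor. Aen was at 2.71 to 2.96 FPKM with PBS and at 21.7 to 23.0 with BLM. The gene called lower was Mdm4 (-0.59 ± 0.21), an inhibitor of p53 that Mdm2 degrades.

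In Atg5-/- cells, BLM raised 6 of the 41 targets and lowered 4, beside 7.66% and 10.7% of all tested genes. The 6 included Aen (1.29 ± 0.18), Fas (0.87 ± 0.25), Gtse1 (0.81 ± 0.30), a microtubule-associated protein of G2 and mitosis, the death receptor Tnfrsf10b (0.67 ± 0.28) and Zmat3 (0.55 ± 0.19), an RNA-binding protein. These 5 had also been called higher with BLM in wild-type cells, with larger estimates (Gtse1 1.87, Tnfrsf10b 1.34, Zmat3 0.74). Tnfrsf10b, at most 0.394 FPKM with PBS, and Zmat3, at most 0.946, reached an FPKM of 1 in 3 samples only through BLM. Their higher calls were favoured by that filter and are a description. In Atg5-/- AT2-BLM, Tnfrsf10b was at 0.121, 1.72 and 1.14 FPKM, overlapping 0.131 to 0.228 in Atg5-/- AT2-PBS. The genes called lower included Pltp (-2.60 ± 0.42), Pmaip1 (-2.43 ± 0.41), which encodes Noxa, and the kinase Plk3 (-1.53 ± 0.47). Pmaip1 went the other way in wild-type cells (1.24 ± 0.41), where 1 sample, AT2-BLM replicate 3, was at 6.19 FPKM and the other 2 at 1.03 and 0.950. It passed the filter on low values only through Atg5-/- AT2-PBS. Its calls against that group were favoured by the filter and are a description. When values were scaled to Cdh1, 1 target was called higher and 11 lower in Atg5-/- cells.

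With PBS, 7 of the 41 targets were called higher in Atg5-/- cells and 1, Dram1 (-0.49 ± 0.20), lower, beside 14.1% and 5.16% of all tested genes. Without Atg5-/- AT2-PBS replicate 2, 3 were called higher. With scaling to Cdh1 the counts were 15 higher and 0 lower, and after quantile normalization 4 and 4. The largest were Pltp (3.38 ± 0.42), a phospholipid transfer protein, at 21.8 to 24.5 FPKM against 0.568 to 2.82, Pmaip1 (2.42 ± 0.41) and Tap1 (1.26 ± 0.34), a peptide transporter of antigen presentation. During BLM injury 12 of the 41 were called lower in Atg5-/- cells and none higher, with a median of -0.35 beside -0.05. None had an adjusted p under 0.05 (13 had an unadjusted p under it). The largest were Sfn (-1.31 ± 0.60), Pmaip1 (-1.25 ± 0.41) and Plk2 (-0.87 ± 0.39), a polo-like kinase. The count was 8 without AT2-BLM replicate 1, 7 after quantile normalization and 4 with scaling to Cdh1. The interaction was called negative for 16 of the 41 and positive for none, beside 15.2% and 5.02% of all tested genes, with 4 of the 16 under an adjusted p of 0.05 and 8 called after quantile normalization. Pmaip1 (-3.67), Pltp (-3.01) and Tap1 (-1.51) were the most negative. For Pmaip1 both the higher call with PBS and the interaction were favoured by the filter on low values.

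**Figure D4:**
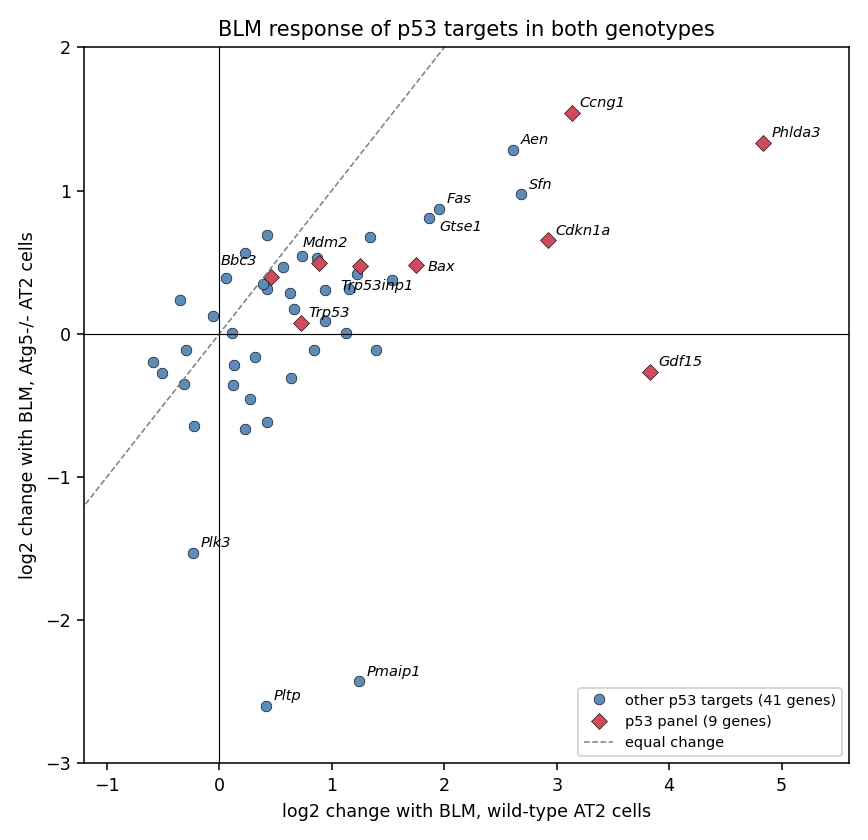
Log2 change with BLM in wild-type AT2 cells (horizontal) and in Atg5-/- AT2 cells (vertical), 1 point per gene, for the 9 tested genes of the panel (diamonds) and 41 other p53 targets (circles). The dashed line marks equal change. Phlda3, Gdf15, Ccng1 and Cdkn1a lie far to the right and below the line, and Pltp and Pmaip1 at the bottom.

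The response elements were set beside the BLM change in wild-type cells. Of the 83 tested genes with a site of at most 1 base off the element around their first start, 31 were called higher with BLM (37.3%) and 4 lower (4.82%), beside 2067 higher of all 9823 genes with a window. Their median log2 change was 0.39, against 0.18 over all windows. Cdkn1a, Ccng1, Gdf15, Gtse1 and Zmat3 are among the 31. With up to 2 bases off, 99 of 400 genes (24.8%) were called higher. Phlda3, with the largest increase of the panel, held no such site in its window, where half-sites with bases between them were not searched.

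Genes that act on p53 or on the breaks were described next. Of 11 p53 regulators and family members 8 were tested, and with BLM in wild-type cells 1 was called, Sirt1, a deacetylase of p53. It was called lower, a share of 12.5% beside 7.77% of all tested genes. Sirt1 was at 1.22, 1.09 and 1.09 FPKM in AT2-PBS and at most 0.683 in the 9 other samples. It passed the filter on low values only through AT2-PBS, so its lower values elsewhere were favoured by the filter and are a description. During BLM injury the acetyltransferases Crebbp (0.70 ± 0.24) and Ep300 (0.69 ± 0.21), coactivators of p53, were called higher in Atg5-/- cells, neither with an adjusted p under 0.05. That is 25% of the tested genes of this list, beside 2.04% of all tested genes. In Atg5-/- cells BLM gave no call in this list, and none had an unadjusted p under 0.05. Of all tested genes 7.66% were called higher and 10.7% lower there.

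Of 25 genes of DNA damage signalling and break repair, 16 were tested, and Atm and Atr were not among them because their FPKM was too low. BLM raised 2 in wild-type cells, among them the ligation factor Xrcc4 (0.53 ± 0.24), a share of 12.5% beside 20.6% of all tested genes. In cells without Atg5 it raised 4, among them Parp1 (0.78 ± 0.21), which senses nicks, and the ligase Lig4 (0.69 ± 0.25), or 25.0% beside 7.66%. With scaling to Cdh1 the latter count was 0, with 1 gene called lower, and the former was 1. Between genotypes none was called with PBS (1 had an unadjusted p under 0.05) or with BLM (0 had), and the interaction was called for Atrip (-0.56 ± 0.24), the partner of Atr. That is 6.25% of the tested genes of this list called negative, beside 15.2% of all tested genes.

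Of 13 other genes of the BCL2 family, which set the threshold of apoptosis, 10 were tested and were called in both directions. With BLM in wild-type cells 4 were called higher (40% beside 20.6%) and 2 lower (20% beside 7.77%). There the killers Bok (1.77 ± 0.55), Bid (1.33 ± 0.26) and Pmaip1 and the protective Bcl2l1 (1.22 ± 0.20) were called higher, and the BH3-only genes Bcl2l11 (-0.60 ± 0.17) and Bik (-0.51 ± 0.22) lower. Without Atg5, Bcl2l1 (0.60 ± 0.20) was called higher and Pmaip1 lower with BLM. These shares of 10% and 10% stand beside 7.66% and 10.7% of all tested genes, so the counts do not set the list apart. With PBS, Pmaip1, Bok (1.28 ± 0.55) and Bid (0.75 ± 0.26) were called higher in Atg5-/- cells, or 30% beside 14.1%. The calls of Pmaip1 against Atg5-/- AT2-PBS were favoured by the filter on low values, as stated above. During BLM injury Pmaip1, Bid (-0.68 ± 0.26) and Bcl2l1 (-0.62 ± 0.20) were lower and Bmf (0.68 ± 0.24) higher by the same rule, or 30% and 10% beside 3.12% and 2.04%. The 3 lower calls became 1 without AT2-BLM replicate 3 or with scaling to Cdh1, and the 3 higher calls with PBS became 1 after quantile normalization or without Atg5-/- AT2-PBS replicate 1. The interaction was called negative for Pmaip1, Bok (-2.22), Bid (-1.42) and Bcl2l1 (-0.63), or 40% beside 15.2%. Bok, Bid and Bcl2l1, like Bax, had their highest mean in AT2-BLM, as 39.1% of tested genes did. Bok was at 3.00, 2.44 and 13.6 FPKM there, so the size of its estimates leans on AT2-BLM replicate 3.

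Of 5 other cyclin-dependent kinase inhibitors, all tested, 2 were called higher with BLM in wild-type cells, Cdkn2b (1.46 ± 0.40), which encodes p15 and neighbours Cdkn2a, and Cdkn2d (0.68 ± 0.27), which encodes p19Ink4d. The background was 20.6%, and the count was 1 after quantile normalization, with median-ratio scaling, with scaling to Cdh1 and without AT2-PBS replicate 2. Cdkn2b was at 9.56 to 10.6 FPKM with PBS and at 16.5, 21.3 and 71.5 with BLM, so the size rests on AT2-BLM replicate 3. None was called with BLM in Atg5-/- cells, and none had an unadjusted p under 0.05. Cdkn1b, which encodes p27, was called higher in Atg5-/- cells both with PBS (0.82 ± 0.26) and with BLM (0.78 ± 0.26), and Cdkn2d with PBS (0.76 ± 0.27). That is 40% of the list with PBS, beside 14.1% of all tested genes, and 20% with BLM, beside 2.04%. No interaction was called in this list.

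Cell cycle genes that p53 and p21 are known to repress were not lower where Cdkn1a was high. Of 22 such genes 19 were tested, and BLM raised 16 in wild-type cells (12 with an adjusted p under 0.05) and 11 in Atg5-/- cells (5), with median log2 changes of 1.25 and 0.80. Of all tested genes, 20.6% and 7.66% were called higher. No gene of the list was called lower with BLM in either genotype. The mitotic kinase Plk1 (1.83 ± 0.37 in wild-type and 1.59 ± 0.37 in Atg5-/- cells), cyclin B2, Ccnb2 (1.76 ± 0.42 in wild-type), and the anaphase activator Cdc20 (1.73 ± 0.42 and 2.31 ± 0.42) were the largest in wild-type cells. The 11 genes, Cdk1, Ccnb1, Plk1, Birc5, Cdc20, Aurka, Ccna2, Top2a, Mcm2, Mcm4 and Mcm5, were called in both genotypes. Birc5 and Top2a reached an FPKM of 1 in 3 samples only with their BLM samples, so their calls were favoured by that filter. Cdc20 was at 7.82 to 12.0 FPKM in AT2-PBS, 27.6 to 49.1 in AT2-BLM, 4.12 to 9.70 in Atg5-/- AT2-PBS and 21.9 to 79.8 in Atg5-/- AT2-BLM. Between the genotypes during BLM injury 0 of 19 were called by limma, 0 had an unadjusted p under 0.05, and the median was -0.03. The interaction was called for Bub1 (0.93 ± 0.37) and Mcm3 (-1.004 ± 0.43). That is 5.26% positive and 5.26% negative, beside 5.02% and 15.2% of all tested genes. With PBS, E2f1 (0.61 ± 0.25) and Mcm3 (0.76 ± 0.31) were called higher and Bub1 (-0.63 ± 0.26) lower in Atg5-/- cells. These shares, 10.5% higher and 5.26% lower, stand beside 14.1% and 5.16% of all tested genes, so the counts do not set the list apart. When values were scaled to Cdh1, 10 genes were called higher in wild-type and 4 in Atg5-/- cells.

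**Figure D5:**
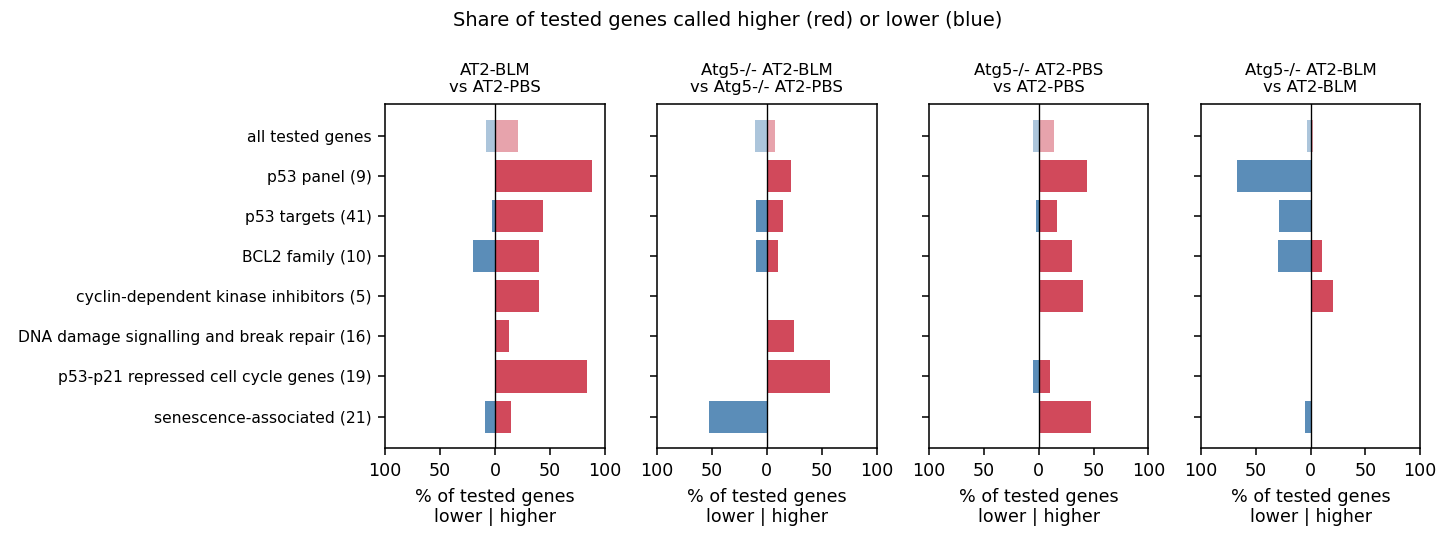
Share of tested genes called higher (red, to the right) or lower (blue, to the left) in 4 comparisons, for all 10675 tested genes (pale), the panel and 6 of the gene lists, with the number of tested genes of each list in brackets. The panel reaches 88.9% higher with BLM in wild-type cells and 66.7% lower in Atg5-/- against wild-type cells during BLM injury, and the list of repressed cell cycle genes shows no call in the latter.

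Of 26 further senescence-associated genes, mostly secreted factors and nuclear proteins lost in senescence, 21 were tested. With BLM in wild-type cells 3 were called higher, the urokinase receptor Plaur (2.94 ± 0.52), the protease inhibitor Timp1 (2.62 ± 0.63) and the chemokine Ccl2 (1.78 ± 0.69), and 2 lower, Mmp3 (-1.11 ± 0.48) and the chromatin protein Hmgb2 (-0.79 ± 0.25), whose loss marks senescent cells. These shares, 14.3% higher and 9.52% lower, stand beside 20.6% and 7.77% of all tested genes, so the count does not set the list apart. Hmgb2 was at 15.2 to 21.3 FPKM in AT2-PBS and at 6.88 to 11.8 in AT2-BLM. The other list genes known to be lower in senescence, Lmnb1 and Hmgb1, were not called. Lmnb1 went the other way, with a mean of 1.62 FPKM in AT2-PBS and 2.61 in AT2-BLM, and Hmgb1 was at 46.8 and 39.6. Hmgb2 was also called lower with BLM in Atg5-/- cells (-0.72 ± 0.25). Il6, Il1a and other secreted factors of the list were not called with BLM in wild-type cells.

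In Atg5-/- cells 11 of the 21 were called lower with BLM and none higher, and with PBS 10 were called higher in Atg5-/- than in wild-type cells and none lower, beside 10.7% lower and 14.1% higher of all tested genes. Without Atg5-/- AT2-PBS replicate 2 the first count was 7. These counts do not separate the list genes known to be lower in senescence from the others. Of those genes, Lmnb1 was at 4.83 to 6.58 FPKM in Atg5-/- AT2-PBS and at most 1.78 in AT2-PBS. Hmgb1 and Hmgb2 overlapped between these groups. Il1a was at least 1.72 FPKM in Atg5-/- AT2-PBS and at most 0.332 in any other library. It passed the filter only through Atg5-/- AT2-PBS, so its higher values there were favoured by the filter. Tnf reached 37.5, 38.4 and 9.58 FPKM in the Atg5-/- AT2-PBS libraries but no more than 2.397 in any other. Tnf and Mmp3 also passed the filter only through Atg5-/- AT2-PBS. For Il1a, Tnf and Mmp3, calls against Atg5-/- AT2-PBS were favoured by the filter, and so were the counts that hold them. Plaur was at 59.8, 52.6 and 55.2 FPKM there, against 0.825 to 3.16 in AT2-PBS (4.48 ± 0.52), and Cxcl2 (3.86 ± 0.87) and Il1b (3.79 ± 0.52) stood out in the same way. With BLM in Atg5-/- cells Tnf (-4.41 ± 0.51), Cxcl2 (-3.50 ± 0.87) and Plaur (-2.998 ± 0.52) were the most negative, and Ccl2 (-2.82), Mmp3 (-2.16) and Timp1 (-1.40) were called as well. These genes are also made by leukocytes, whose markers were 831 to 1140 FPKM in the same libraries. Their part was not tested. During BLM injury, where leukocyte markers were not called between the genotypes, 1 of the 21 was called, Plaur (-1.45 ± 0.52). This share of 4.76% stands beside 3.12% of all tested genes called lower, so the count does not set the list apart. Plaur was at 9.504, 13.1 and 48.8 FPKM in AT2-BLM and was not called without the highest of these, replicate 3, or without Atg5-/- AT2-BLM replicate 1. The interaction was called negative for 9 (42.9% beside 15.2% of all tested genes), led by Plaur (-5.94), Ccl2 (-4.60) and Cxcl2 (-4.40).

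The genes whose pattern over the 12 samples was nearest to that of Cdkn1a, by the mean absolute difference of centred log2(FPKM + 1) values, were Slc19a2 (0.35), Hist1h1c (0.37), Gch1 (0.38), Dyrk3 (0.39) and Slpi (0.39). Their means went from 1.03 to 6.81 FPKM with BLM in wild-type cells for Slc19a2, from 23.4 to 98.8 for Hist1h1c, from 9.27 to 34.2 for Gch1, from 3.61 to 20.1 for Dyrk3 and from 69.6 to 583 for Slpi. Dyrk3 also held a response element with no base off. Of the panel, Bax and Ccng1 were nearest to Cdkn1a, at rank 52 and 57 of the tested genes. Nearest to Mdm2 were Eaf1 (0.10), Shc1 (0.11), Tmem30a (0.13), Ctbs (0.13) and Psmd2 (0.14), whose log2 changes with BLM in wild-type cells were 0.69 for Psmd2 to 0.93 for Shc1, beside 0.88 for Mdm2.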

How the data were processed

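RNA of FACS-sorted AT2 cells was measured in 12 samples, grouped by their titles. Per the paper and the labels, the authors sequenced TruSeq libraries, trimmed reads with Trimmomatic 0.36 and aligned them to mm9 (the paper names STAR, the submitters' notes HISAT2 2.2.1.0). The deposited values are FPKM per gene from Cufflinks 2.2.1. Whether they include the DESeq normalization the paper names is not given in the sources used here. No values per fragment were used, so depth is unknown and gives no counting interval.

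FPKM were tested as log2(FPKM + 1) with limma 3.58.1 in R 4.3.3 (eBayes with trend), 1 fit of 4 groups, for the 10675 genes that reached an FPKM of 1 in 3 or more samples. Fold changes on this scale understate low genes. A call needs p under 0.05 and a fold of 1.4. An exact permutation test of 3 against 3 cannot go below p = 0.1 and was not used. The script was tested on simulated data. The panel and the gene lists were chosen with earlier results of these data known. Beside the panel, the named genes are, per list and comparison, the at most 3 called genes per direction with the largest change, and any list gene called with BLM in both genotypes. For Cdkn1a and Mdm2 the 5 nearest patterns are named. Krt8, Ptprc, Scgb1a1, Sftpc, Atm, Atr, Il6 and Il1a were named after their values were seen. Lmnb1, Hmgb1, Pdpn, Hopx, Cav1, Lum, Sftpa1 and Sftpb are also named outside these rules. Alternatives were another pseudocount, filter, scaling, fit, threshold and each sample left out. A gene of the DNA damage list is not reported here.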

Additional observations from a re-analysis of the deposited data

Results flagged for a closer look

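For 6 genes of the panel the response to BLM differed between the genotypes by the interaction in the limma fit, which was called negative for 15.2% of all tested genes. It was also called negative for 8 of 8 tested leukocyte markers, with a median of -3.92. The part of other cells in the panel's interaction was not tested. The Atg5-/- minus wild-type difference of the log2 change was -4.10 for Gdf15 (3.83 in wild-type and -0.27 in Atg5-/- cells), -3.50 for Phlda3 (4.84 and 1.33), -2.27 for Cdkn1a (2.92 and 0.65), -1.59 for Ccng1 (3.14 and 1.54), -1.27 for Bax (1.75 and 0.48) and -0.65 for Trp53 (0.72 and 0.08). Adjusted p-values were 0.00177, 0.000176, 0.0193, 0.00355, 0.0159 and 0.114 in this order. Each rests on 3 samples per group. Over 19 alternatives with a p for each gene, the adjusted p stayed under 0.05 in all 19 for Gdf15, Phlda3 and Ccng1, in 18 for Cdkn1a, in 16 for Bax and in 0 for Trp53. Groups of 3 samples are too small for a test of single outlying samples.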

How the results depend on the processing

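Without one sample in turn, the panel's calls ranged from 8 to 9 for BLM in wild-type cells, 2 to 4 for BLM in Atg5-/- cells, 4 to 5 for Atg5 loss with PBS, 4 to 6 for Atg5 loss with BLM and 6 to 7 for the interaction, and those of all genes from 2621 to 3170, 1533 to 2321, 1578 to 2243, 371 to 801 and 1662 to 2491. With the adjusted p under 0.05 as the criterion, 1856, 923, 1195, 1 and 842 genes were called in these 5 comparisons, in place of 3031, 1962, 2058, 551 and 2156, and 0 panel genes for Atg5 loss with BLM. With a fold of at least 2 there were 982, 914, 1113, 101 and 1328. In Atg5-/- cells 4 panel genes were called with BLM at a pseudocount of 0.1 and after quantile normalization. Scaling to Cdh1 gave 7 panel genes for Atg5 loss with PBS. Relative to no scaling, it moved the median log2 change of all genes from 0.17 to -0.01, 0.06 to -0.32, 0.02 to 0.34, -0.05 to 0.09 and -0.09 to -0.27, and quantile normalization moved it to 0.003, 0.11, -0.16, 0 and 0.14.

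Estimates near 0 turned. For BLM in Atg5-/- cells, Trp53 was -0.35 with scaling to Cdh1 and as low as -0.0095 with a sample left out, and Bbc3 was -0.0133 with that scaling. For Atg5 loss with PBS, scaling to Cdh1 gave 0.0516 for Mdm2 and 0.30 for Bbc3, and Bbc3 ranged from -0.19 to 0.14 with samples left out. For Atg5 loss with BLM, Bbc3 was 0.0351 with scaling to Cdh1 and -0.30 to 0.0545 with samples left out. Its interaction was 0.14 after quantile normalization, 0.0208 with median-ratio scaling and -0.26 to 0.11 with samples left out. The cause was not tested. No estimate of another panel gene and none of a named list gene turned under the alternatives run. Of 765 refits of panel genes, 701 kept direction and call.

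The replicate numbers do not pair the samples: deviations of samples with the same number correlated at -0.239 to 0.227. With the replicate number as a block, 8, 2, 4, 6 and 6 panel genes and 3014, 1959, 2055, 558 and 2166 genes were called, and no call of the panel changed. The unknown depth limits what can be said of genes at low FPKM, such as Mdm2, Trp53inp1 and Sirt1.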
